A study of Mus musculus with 67 samples.

Results

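Tmem119, Cx3cr1, Fcrls, Olfml3, Selplg, Sparc, Gpr84, Slc2a5 and Crybb1 are taken here as signature genes of homeostatic, or resting, microglia, the resident macrophages of the brain. They were taken by symbol from 3 tables of read counts per gene from mouse brain, where they made up 9 of 24411 listed genes in the driver and digest experiments and 9 of 24421 in the LPS experiment. All 9 passed the filter on low counts in each experiment. No measured value was used to choose them, but they were picked with earlier results of these data known. Gpr84 rose steeply in the LPS experiment, as described below, which goes against its place among genes of the resting state.

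Microglia in the healthy brain keep a gene program that sets them apart from other macrophages, and several of its genes are lost when the cells respond to inflammation or are taken out of the tissue. Some of the 9 genes encode proteins of the cell surface: Cx3cr1 is the receptor for the neuronal chemokine fractalkine, Selplg the ligand of P-selectin, Fcrls an Fc receptor-like scavenger protein, Gpr84 a receptor for medium-chain fatty acids, and Tmem119 a membrane protein used as a microglial marker. Slc2a5 is a fructose transporter. Olfml3 and Sparc are secreted proteins of the extracellular matrix, and Sparc is also made by endothelial cells and astrocytes. Crybb1 is a beta crystallin, first known from the lens.

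The study used the RiboTag system, in which Cre recombinase tags the ribosomal protein Rpl22 with HA so that the ribosomes of recombined cells, with the RNA on them, can be captured from brain homogenate by an antibody to HA. All mice were C57BL/6J, homozygous for the RiboTag allele and heterozygous for a Cre allele at Cx3cr1, so every value of Cx3cr1 itself comes from mice with 1 unmodified copy of that gene. Cre follows the Cx3cr1 promoter, which border macrophages of the brain also use. The driver experiment held 3 kinds of mice, each with anti-HA pull-down, IgG1 control pull-down and input: the constitutive driver CX3CR1Cre/WT RLP22HA/HA with no tamoxifen (3 libraries of each type), the inducible driver CX3CR1CreER/WT RLP22HA/HA without tamoxifen (2, here called uninduced) and the inducible driver after 4 gavages of 5 mg tamoxifen at 4 to 6 weeks of age (3, here called induced). The digest experiment used CX3CR1CreER/WT RLP22HA/HA mice given tamoxifen, with sorted cells prepared after enzymatic digest for 20 min (Collagenase D with DNase, 37 °C; 4), sorted cells prepared without it (4), pull-down (3) and IgG (4). The LPS experiment used the same genotype with tamoxifen, and mice received lipopolysaccharide (LPS), a bacterial product sensed by Toll-like receptor 4, at 2.5 mg/kg for 3 h (4 libraries of each type) or PBS (3), each with pull-down, IgG, sorted cells and pull-down from sorted cells. Sorted cells were GR1 negative, CD45 intermediate and CD11b positive. Libraries of sorted cells without pull-down were not selected for RNA on ribosomes. Sorted cells and whole-brain pull-down thus differ in the RNA taken as well as in cell isolation, and these cannot be told apart in that comparison. The design text gives replicates as separate mice and says that 1 animal gave both sorted cells and pull-down, so libraries of different preparations may share a mouse, and no source used here gives their age at sampling.

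Promoter sequences from RefSeq (build GRCm38.p6) matched 7 of the 9 genes by symbol; each window runs from 250 bases before the gene's start to 50 after it. The windows of Gpr84 and Fcrls, which were higher after LPS, and of Cx3cr1, which was lower, are shown 5′ to 3′ on the gene's strand, since the LPS results turn on these genes. Capitals mark matches, on either strand, to AGGAAGT, a core bound by PU.1 and other ETS factors, or to GGGA followed by any 4 bases and CC, a consensus of NF-kB; the motifs do not overlap here.
Gpr84 (chr15:103310389-103310688, minus strand): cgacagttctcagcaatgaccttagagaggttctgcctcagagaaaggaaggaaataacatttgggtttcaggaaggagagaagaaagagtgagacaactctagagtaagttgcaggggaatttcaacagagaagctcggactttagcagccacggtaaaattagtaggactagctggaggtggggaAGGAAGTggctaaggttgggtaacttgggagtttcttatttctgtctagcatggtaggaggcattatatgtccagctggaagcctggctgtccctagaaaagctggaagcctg
Fcrls (chr3:87263475-87263774, minus strand): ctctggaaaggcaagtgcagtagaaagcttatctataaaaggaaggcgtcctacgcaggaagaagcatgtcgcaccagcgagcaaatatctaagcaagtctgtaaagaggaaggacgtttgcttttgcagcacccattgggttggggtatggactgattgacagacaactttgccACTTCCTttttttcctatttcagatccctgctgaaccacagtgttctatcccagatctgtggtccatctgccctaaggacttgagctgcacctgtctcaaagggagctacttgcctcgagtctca
Cx3cr1 (chr9:120068247-120068546, minus strand): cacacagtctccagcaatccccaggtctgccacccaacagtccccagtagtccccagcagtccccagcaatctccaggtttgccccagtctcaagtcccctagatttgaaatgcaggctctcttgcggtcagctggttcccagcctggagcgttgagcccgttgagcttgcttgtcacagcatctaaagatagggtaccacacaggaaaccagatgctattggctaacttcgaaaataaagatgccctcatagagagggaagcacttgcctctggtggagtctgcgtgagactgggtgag
The Gpr84 window holds AGGAAGT once, 63 bases before the start, and the Fcrls window holds it once on the opposite strand, 75 bases before the start. The windows of Cx3cr1, Olfml3, Sparc, Slc2a5 and Crybb1 hold no match, and none of the 7 windows matches the form of the NF-kB consensus searched here. Other forms and near matches were not searched. Among 32544 distinct windows of 300 bases in the RefSeq table, 9.27% hold AGGAAGT and 20.8% hold that NF-kB form. In the RefSeq annotation Tmem119 and Selplg are neighbouring genes, Crybb1 overlaps Cryba4, and Cx3cr1 overlaps the predicted gene Gm33858. The strand setting of the counting is not given in the sources used here, so reads of the overlapping pairs cannot be told apart.

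Total counts ran from 186099 to 2084562 per library in the driver experiment, from 685218 to 1843618 in the digest experiment and from 166851 to 3513317 in the LPS experiment. The lowest totals were those of uninduced pull-downs and of LPS pull-downs from sorted cells, where Slc2a5 rests on as few as 6 and 8 reads. Levels are given as CPM, counts relative to the library total after trimmed-mean (TMM) scaling, and they are comparable for 1 gene across libraries of 1 experiment, not between genes, since gene lengths were not used. Changes are log2 fold changes ± standard error (SE) from the edgeR quasi-likelihood test, and a gene is called at an adjusted p under 0.05 over all genes tested. In bulk samples of this kind, fewer cells of a type and less RNA per cell cannot be told apart. Several libraries stood apart from their group by markers of other cells. Constitutive pull-down replicate 1 had a summed level of 6165 CPM for 10 astrocyte genes, against at most 2205 CPM in replicates 2 and 3, and of 5882 CPM for 10 oligodendrocyte genes, against 1789 and 1904 CPM. LPS sorted-cell pull-down replicates 2 and 3, the shallowest of that group at 209147 and 166851 counts, had more of 15 neuronal genes, at 900.3 and 1114 CPM, against 304 and 252 CPM in replicates 1 and 4, and more of the oligodendrocyte genes, at 875 and 954 CPM, against 312 and 293 CPM. In the digest experiment digested sorted replicate 1 and undigested sorted replicate 4 carried more neutrophil and monocyte genes than the other sorted libraries. Calls that changed without these libraries are given beside the result.

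With the inducible driver after tamoxifen, the question was how far the pull-down enriched these genes over the brain it came from. Over input, all 9 were higher in pull-down, with a median log2 difference of 6.23, where 28.7% of the 11868 genes tested were called higher and the median over all of them was -0.28. Tmem119 had 5268, 4709 and 4243 CPM in induced pull-down, against 45.0, 97.7 and 52.2 CPM in IgG and 46.3, 38.0 and 34.4 CPM in input. Selplg had 9560.0, 8594 and 7561 CPM in pull-down, against 75.1, 62.2 and 106 CPM in IgG and 94.6, 84.2 and 34.4 CPM in input. For both surface genes every pull-down library lay far above every control library. Selplg was 122-fold higher in pull-down than in input (6.94 ± 0.42, adjusted p = 2.64e-12).

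The receptors Cx3cr1, Fcrls and Gpr84 followed the same pattern at their own levels. Cx3cr1 had 729, 699 and 622 CPM in pull-down, against 22.5, 25.0 and 17.1 CPM in IgG and 5.61, 20.9 and 19.6 CPM in input (5.44 ± 0.41 over input). Fcrls had 1684, 1455 and 1322 CPM in pull-down, against 20.3, 17.0 and 23.1 CPM in IgG and 11.9, 17.1 and 13.8 CPM in input (6.70 ± 0.33 over input). Gpr84 had 141, 147 and 151 CPM in pull-down, against 2.25, 3.23 and 0 CPM in IgG and 2.80, 2.24 and 2.68 CPM in input. No control library of Gpr84 held more than 6 reads, and its log2 difference was 5.76 ± 0.38 over input. The fructose transporter Slc2a5 had 313, 331 and 535 CPM in pull-down, against 2.25, 2.42 and 2.01 CPM in IgG and 4.20, 7.45 and 6.69 CPM in input (5.97 ± 0.41 over input).

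The 2 secreted proteins differed widely in enrichment. Olfml3 had 2048, 1871 and 2044 CPM in pull-down, against 30.0, 20.2 and 23.1 CPM in IgG and 22.4, 40.2 and 18.3 CPM in input (6.23 ± 0.28 over input). Sparc had 6498, 6399 and 5340.4 CPM in pull-down, against 657, 595 and 547 CPM in IgG and 911, 901 and 1227 CPM in input (2.58 ± 0.24 over input). Sparc thus had the smallest log2 difference of the 9 over input and over IgG. Crybb1 had the largest over input (7.31 ± 0.40), at 637, 1214 and 855 CPM in pull-down, against 18.0, 15.3 and 25.1 CPM in IgG and 9.11, 7.45 and 1.78 CPM in input.

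Against IgG, the control pull-down, all 9 were again higher, with a median of 6.18, where 30.8% of genes were called higher. The amounts of anti-HA and IgG1 antibody used were not taken into account in any comparison with IgG. The differences ran from 3.34 ± 0.25 for Sparc to 7.39 ± 0.49 for Slc2a5. Border macrophage genes moved with them: 9 of the 10 listed were tested, all 9 were higher over input with a median of 5.55, and their summed level was 1460.2, 1547 and 1288 CPM in pull-down, against 24.8, 15.3 and 34.1 CPM in IgG and 21.7, 29.1 and 19.6 CPM in input. Their part in the values of the 9 genes was not tested. Leaving out each library in turn kept all 9 called in both comparisons, and so did each change of scaling, filter or test. Total-count scaling moved the median of all genes by -0.47 over input and -0.53 over IgG, and the share of calls that were higher to 28.8% and 30.4%, against 44.7% and 46.6% with TMM.

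**Figure D1:**
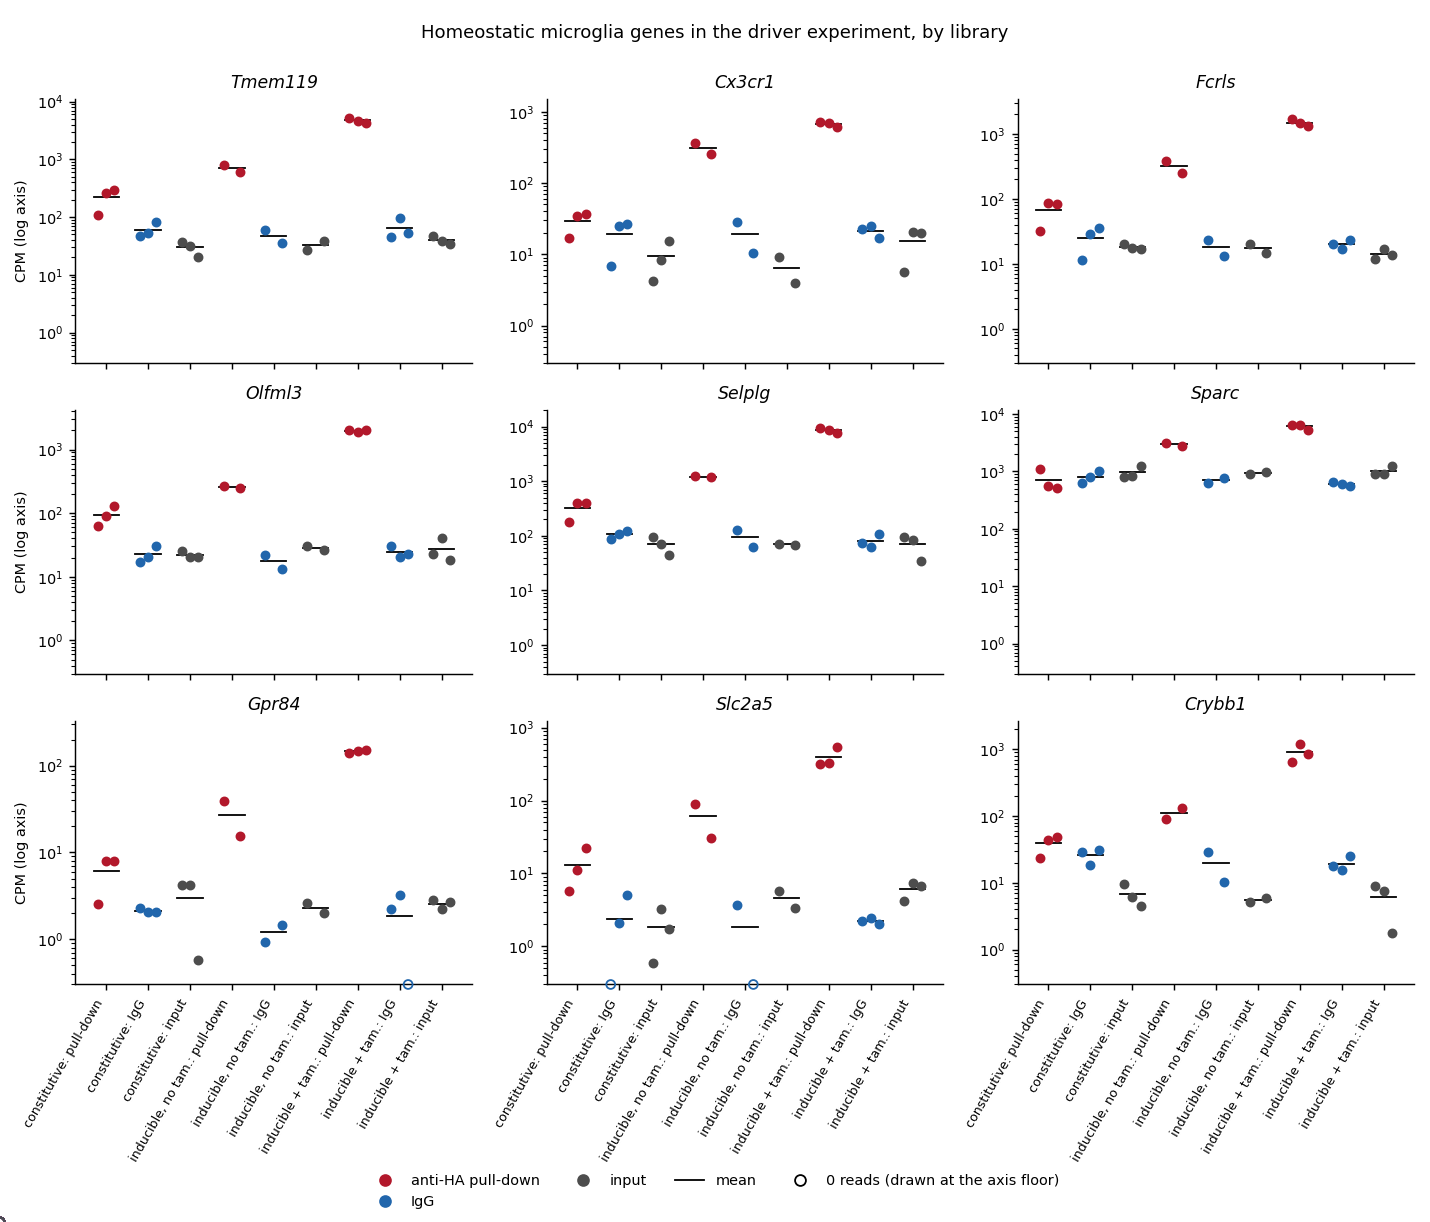
CPM on a log axis for each gene in the 24 libraries of the driver experiment, by driver and preparation; each point is a library and the bar is the group mean. Induced pull-down stands highest for all 9 genes, uninduced pull-down next, and constitutive pull-down of Sparc, at 505 to 1081 CPM, does not stand above its controls.

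The constitutive driver addressed whether Cre from the same promoter, active from development on, enriched the same genes. Enrichment over input was smaller: 7 of the 9 were called higher, with a median of 2.08, where 18.1% of genes were called higher. The low-count filter was applied over all groups of the experiment. Gpr84 and Slc2a5, the latter among those called, fell below it when constitutive pull-down and input were fitted alone. Tmem119 had 108, 262 and 294 CPM in constitutive pull-down, against 46.9, 53.7 and 82.3 CPM in IgG and 37.7, 31.9 and 20.5 CPM in input (2.87 ± 0.33 over input, adjusted p = 6.71e-07). Selplg had 176, 392 and 407 CPM in pull-down, against 89.2, 107 and 124 CPM in IgG and 93.9, 71.4 and 44.4 CPM in input (2.21 ± 0.35 over input). Replicate 1 of the pull-down was the lowest library for both genes but still lay above every control library. Olfml3 had 62.5, 89.1 and 130.3 CPM in pull-down, against 17.1, 20.7 and 30.9 CPM in IgG and 25.1, 20.7 and 20.5 CPM in input (2.08 ± 0.26 over input).

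Sparc and Gpr84 were not called over input with the constitutive driver. Sparc had 1081, 549.9 and 505 CPM in pull-down, against 623, 786 and 1018 CPM in IgG and 802, 828 and 1261 CPM in input (-0.43 ± 0.23 over input, adjusted p = 0.137). Only replicate 1 of the pull-down, the library with raised astrocyte, oligodendrocyte and endothelial genes, reached the level of input. The call for Sparc changed with total-count scaling (-0.69, adjusted p = 0.0179) and without constitutive pull-down replicate 1 (-0.87, 0.00242), each time to lower in pull-down. The summed level of 10 endothelial genes was 181, 15.9 and 22.3 CPM in these pull-downs, and its part in the Sparc values was not tested. Gpr84 had 4, 10 and 9 reads in pull-down, against 2, 1 and 2 in IgG and 7, 9 and 1 in input. Its log2 difference over input was 0.93 ± 0.50 (adjusted p = 0.152), and it was called without constitutive pull-down replicate 1 (1.36, adjusted p = 0.0366).

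Against IgG, 5 of the 9 were called higher in constitutive pull-down, with a median of 1.41, where 20.5% of genes were called higher. They were Tmem119 (1.83 ± 0.33), Fcrls (1.37 ± 0.33), Olfml3 (1.99 ± 0.29), Selplg (1.59 ± 0.36) and Slc2a5 (2.23 ± 0.72). Cx3cr1 had 17.0, 34.2 and 36.6 CPM in constitutive pull-down, against 6.86, 24.8 and 26.7 CPM in IgG and 4.19, 8.45 and 15.4 CPM in input. It was called over input (1.61 ± 0.47) but not over IgG (0.60 ± 0.49, adjusted p = 0.358), where its libraries overlapped. Crybb1 had 23.4, 44.6 and 49.1 CPM in pull-down, against 28.6, 18.6 and 30.9 CPM in IgG and 9.57, 6.10 and 4.55 CPM in input, and it too was called over input (2.50 ± 0.40) and not over IgG (0.51 ± 0.38, adjusted p = 0.299). Without constitutive pull-down replicate 1, Gpr84 was called higher over IgG (1.85, adjusted p = 0.025) and Sparc lower (-0.62, 0.0249). The Slc2a5 call over IgG rested on 48 reads in pull-down and was lost without constitutive IgG replicate 1 (1.59, adjusted p = 0.0982) and without constitutive pull-down replicate 3 (1.64, 0.0862). Slc2a5 and Gpr84 fell below the low-count filter when constitutive pull-down and IgG were fitted alone. The Cx3cr1 call over input was lost without constitutive input replicate 1 (1.24, adjusted p = 0.0528), and the Fcrls call over IgG was lost when fitted on the compared groups alone (1.23, adjusted p = 0.092). Total-count scaling shifted the median of all genes by -0.26 over input and -0.28 over IgG, with 28.1% and 31.1% of calls higher, against 51.8% and 52.9% with TMM.

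Mice with the inducible driver but no tamoxifen served as a control for recombination without induction. All 9 genes were nonetheless called higher in uninduced pull-down, over input with a median of 4.12, where 6.44% of genes were called higher, and over IgG with a median of 3.85, where 5.01% were. Cx3cr1 had 366 and 257 CPM in uninduced pull-down, against 27.9 and 10.3 CPM in IgG and 9.04 and 3.98 CPM in input (5.56 ± 0.59 over input). Tmem119 had 793 and 601 CPM in pull-down, against 58.7 and 35.4 CPM in IgG and 27.1 and 38.5 CPM in input (4.41 ± 0.44 over input). Each pull-down library of these genes lay above each control library. Sparc, again the gene with the smallest difference, had 3161 and 2748 CPM in pull-down, against 640.0 and 765 CPM in IgG and 911 and 958 CPM in input (1.66 ± 0.29 over input).

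The uninduced pull-downs were shallow, at 219521 and 186099 counts, and the weakest members rested on single-digit reads. Gpr84 had 9 and 3 reads in pull-down, against 1 and 1 in IgG, a ratio of 24.6 after scaling for depth, with an exact 95% interval of 5.48 to 227 that covers counting error only. Gpr84 fell below the low-count filter when uninduced pull-down and IgG were fitted alone, so its call over IgG exists only in fits of all groups. Slc2a5 had 21 and 6 reads in pull-down, against 4 and 0 in IgG. Without uninduced pull-down replicate 1, the calls were lost for Gpr84 over input (2.65, adjusted p = 0.247) and over IgG (3.60, 0.162) and for Slc2a5 over input (2.68, 0.183) and over IgG (3.67, 0.108). The Crybb1 call over IgG was lost without uninduced pull-down replicate 2 (2.12, adjusted p = 0.0711). The border macrophage genes summed to 172 and 169.5 CPM in uninduced pull-down, against 52.2 and 36.8 CPM in IgG and 19.4 and 21.2 CPM in input, and their part in these values was not tested. With 1 pull-down library left, the lone library is assumed to vary like the other groups.

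**Figure D2:**
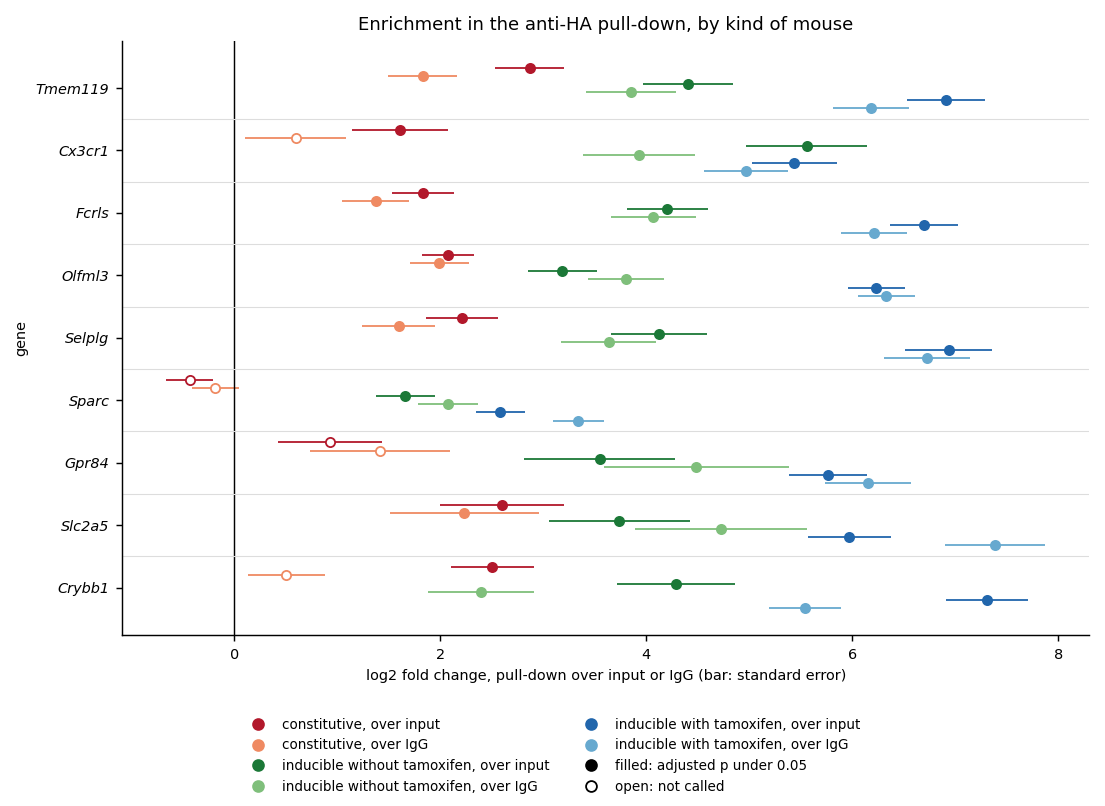
Log2 fold change of each gene in pull-down over input or IgG for the constitutive, uninduced and induced mice, with standard errors; filled points are called and open points are not. Induced enrichment lies furthest right for each gene except Cx3cr1 over input, where the uninduced value of 5.56 lies beside the induced 5.44.

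The pull-downs of the 3 kinds of mice were then compared directly. All 9 genes were lower in constitutive than in induced pull-down, with a median of -4.55, where 25.6% of genes were called lower. The differences ran from -4.97 ± 0.38 for Slc2a5 to -3.09 ± 0.24 for Sparc, and in each gene the libraries of the groups did not overlap. How many of all genes tested had no overlap was not counted. The interaction, pull-down over input in constitutive mice minus the same in induced mice, was called lower for all 9, where 19.7% of genes were called lower, from -4.87 ± 0.43 for Fcrls to -3.02 ± 0.33 for Sparc. Over the same libraries, the summed level of 15 neuronal genes was 8075, 10624 and 9962 CPM in constitutive pull-down and 2743, 2195 and 3093 CPM in induced pull-down, and its part in the result was not tested. The summed level of the border macrophage genes was 63.1, 108 and 143 CPM in constitutive pull-down and 1460.2, 1547 and 1288 CPM in induced pull-down, and its part was not tested either. The Slc2a5 interaction was not called without constitutive input replicate 2 (-2.82, adjusted p = 0.0983).

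Uninduced pull-down lay between them. All 9 genes were lower without tamoxifen than with it, with a median of -2.66, where 18.3% of genes were called lower. The differences were largest for Crybb1 (-3.02 ± 0.39), Olfml3 (-2.94 ± 0.29) and Selplg (-2.83 ± 0.41) and smallest for Sparc (-1.04 ± 0.26) and Cx3cr1 (-1.13 ± 0.40, adjusted p = 0.0346). Cx3cr1 was the least firm of these calls and was lost with total-count scaling (-0.65, adjusted p = 0.207), by the DESeq2 Wald test (-1.21, 0.076), without uninduced pull-down replicate 1 (-1.48, 0.0713), without uninduced pull-down replicate 2 (-0.98, 0.189), without induced pull-down replicate 1 (-1.08, 0.0713) and without induced pull-down replicate 2 (-1.11, 0.0642), while the Sparc call was lost with total-count scaling (-0.57, adjusted p = 0.086). Total-count scaling moved the median of all genes by 0.46 in this comparison and the share of calls that were higher to 70.3%, against 47.2% with TMM.

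IgG was also set against input for these genes. Averaged over the 3 kinds of mice, 3 members were higher in IgG than in input, where 25.5% of genes were called higher, and 1 was lower, where 28% were called lower. The counts lie near or below the shares over all genes, so they are no result about the 9 as a group. Gpr84 and Slc2a5, neither of them called, fell below the low-count filter when IgG and input were fitted alone. Crybb1 was higher by 1.89 ± 0.29, Cx3cr1 by 1.04 ± 0.33 and Tmem119 by 0.77 ± 0.22, and Sparc was lower (-0.47 ± 0.14). The Tmem119 and Cx3cr1 calls were lost without uninduced IgG replicate 1 (0.64, adjusted p = 0.0518, and 0.73, 0.173). Selplg (0.44 ± 0.23, adjusted p = 0.112) was called higher without the low-count filter (0.43, adjusted p = 0.00775), by the DESeq2 Wald test (0.49, 0.0432), without constitutive input replicate 1 (0.55, 0.0496) and without uninduced IgG replicate 2 (0.60, 0.0409).

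In the digest experiment, pull-down and sorting were set side by side in tamoxifen-treated mice whose labels name no LPS or PBS. Over IgG, all 9 genes were higher in pull-down, with a median of 5.33, where 26.7% of 11529 genes tested were called higher. The values ran from 3.06 ± 0.14 for Sparc to 6.47 ± 0.19 for Slc2a5, the genes at the ends of the range over IgG in induced mice of the driver experiment as well. Tmem119 had 3609, 3706 and 3552 CPM in pull-down, against 44.4, 67.4, 47.4 and 59.0 CPM in IgG.

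Cells sorted after the digest had more of 4 of the 9 genes than pull-down, where 31.6% of genes were called higher. That count is not far above the share over all genes, so it is no result about the 9 as a group. Cx3cr1 had 2022, 2130.3, 2037 and 1871 CPM in digested sorted cells, against 806, 762 and 670.1 CPM in pull-down, 2.70-fold higher (1.43 ± 0.14, adjusted p = 4.31e-12). Gpr84 had 350.5, 382, 356 and 474 CPM in digested sorted cells, against 171, 198 and 194 CPM in pull-down (1.05 ± 0.14). Each sorted library lay above each pull-down library for both receptors. Slc2a5 had 588, 580.2, 642 and 665 CPM in sorted cells, against 497, 422 and 474 CPM in pull-down (0.42 ± 0.13). Fcrls was higher by a small margin (0.31 ± 0.13), and this call was lost without digest-experiment pull-down replicate 1 (0.25, adjusted p = 0.127), without digest-experiment pull-down replicate 3 (0.30, 0.0734), without digested sorted replicate 2 (0.25, 0.107) and without digested sorted replicate 4 (0.27, 0.0753).

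Tmem119, Olfml3, Selplg, Sparc and Crybb1 were not called in this comparison. Their log2 differences ran from -0.20 ± 0.14 for Sparc to 0.16 ± 0.12 for Selplg, and Crybb1 stood at 0.01 ± 0.12, with 637, 786, 666 and 701 CPM in sorted cells, against 678, 689 and 709.6 CPM in pull-down. Total-count scaling, which moved the median of all genes by 0.17, made Selplg higher (0.33, adjusted p = 0.0125). Beside these values, the 15 neuronal genes summed to 11.4 to 26.3 CPM in digested sorted cells and 1844 to 1985 CPM in pull-down, and 10 border macrophage genes to 266 to 322 CPM and 1189 to 1293 CPM. The neuronal markers Syt1 and Gad2 were at 0 reads in all digested sorted libraries. The part of those differences in the values of the 9 genes was not tested.

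Sorting without the digest was set against pull-down in the same way. The same 4 genes were higher than in pull-down, where 31.9% of genes were called higher, and 1 was lower, where 40.9% were. Cx3cr1 had 2155, 1929, 2280.2 and 1908 CPM in undigested sorted cells (1.47 ± 0.14 over pull-down), Gpr84 378, 388, 339 and 385 CPM (0.98 ± 0.14) and Slc2a5 625, 662, 649 and 663 CPM (0.49 ± 0.12). Fcrls (0.35 ± 0.13) lost its call without digest-experiment pull-down replicate 1 (0.30, adjusted p = 0.0693) and without undigested sorted replicate 4 (0.27, 0.0681). Sparc had 4905, 5019, 4141 and 4846 CPM in undigested sorted cells, against 6591, 6199 and 5212 CPM in pull-down, a log2 difference of -0.34 ± 0.14 that was not called with total-count scaling (-0.14, adjusted p = 0.353), without digest-experiment pull-down replicate 1 (-0.28, 0.113), without digest-experiment pull-down replicate 2 (-0.33, 0.0628) and without undigested sorted replicate 3 (-0.28, 0.0836). With total-count scaling, which moved the median of all genes by 0.21, Selplg (0.41, adjusted p = 0.00238) and Tmem119 (0.36, 0.00761) were called higher.

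The enzymatic digest itself was tested by setting digested against undigested sorted cells. None of the 9 genes was called by edgeR in either direction, where 0.121% of genes were called higher and 0.0173% lower, none had an unadjusted p under 0.05, and the DESeq2 Wald test also called 0. The log2 differences ran from -0.09 ± 0.11 for Tmem119 to 0.15 ± 0.13 for Sparc. Tmem119 averaged 3776 ± 159.5 CPM in digested cells and 4030.0 ± 243 CPM in undigested cells (SD, n = 4 each), and Cx3cr1 2015 ± 107 CPM and 2068 ± 180.0 CPM. The libraries of the groups overlapped for every gene. Digested replicate 1 and undigested replicate 4 carried neutrophil and monocyte genes, at summed levels of 238 and 381 CPM, against 7.43 to 15.3 CPM in the other sorted libraries. Leaving out both, an alternative chosen after seeing the data, again called none of the 9 between digested and undigested cells, and against pull-down it ended the Fcrls call in undigested cells (0.27, adjusted p = 0.0783).

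In the LPS experiment the response of the 9 genes was read in 4 preparations. Within 3 h of LPS, Gpr84 rose steeply in pull-down, sorted cells and pull-down from sorted cells, and Cx3cr1, Slc2a5, Olfml3 and Tmem119 fell in each of these. In pull-down 2 members rose, where 15.5% of 11444 genes tested were called higher, and 4 fell, where 11% were called lower. In sorted cells 2 rose and 6 fell, where 17% and 17.6% of genes were called. In pull-down from sorted cells 1 rose and 7 fell, where 12.7% and 12.9% were called. In that preparation LPS replicates 2 and 3, which held the most neuronal and oligodendrocyte genes, also had less of 30 other homeostatic genes, at 95143 and 87616 CPM in sum, against 120034 and 115131 CPM in replicates 1 and 4. With replicates 1 and 4 alone, an alternative chosen after seeing the data, 1 rose and 6 fell: the Sparc call was lost (-0.26, adjusted p = 0.343). Border macrophage genes summed to 1065, 987, 846 and 806 CPM in LPS pull-down and 1198, 1106 and 1238 CPM in PBS pull-down, and their part in the pull-down values was not tested. The medians over the 9 were -0.26, -0.94 and -0.93 in that order, beside -0.03, -0.01 and -0.07 over all genes. Total-count scaling moved the median of all genes by -0.15 in pull-down and -0.11 in sorted cells; in pull-down 40.6% of calls were then higher, and 45% with DESeq2 size factors, against 58.6% with TMM.

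Gpr84, the fatty acid receptor, showed the largest change of the 9. It had 1328, 2297, 1776 and 1553 CPM in LPS pull-down, against 143, 149 and 75.7 CPM in PBS pull-down, 14.1-fold higher (3.82 ± 0.37, adjusted p = 2.04e-08). In sorted cells it had 2277, 3877, 3623 and 3475 CPM after LPS, against 303, 228 and 149 CPM after PBS (3.86 ± 0.37). In pull-down from sorted cells it had 4829, 6467, 5759 and 7391 CPM after LPS, against 524, 611 and 356 CPM after PBS (3.64 ± 0.37). The lowest LPS library of each preparation was several-fold above its highest PBS library. The change differed from that in pull-down by 0.04 ± 0.47 in sorted cells and -0.18 ± 0.46 in pull-down from sorted cells, and neither difference was called. Since neutrophils and monocytes can also express Gpr84, the summed level of 10 of their marker genes is given: 12.2, 10.6, 19.0 and 22.7 CPM in LPS pull-down and 12.4, 5.91 and 14.5 CPM in PBS pull-down, 17.6, 43.3, 29.4 and 28.5 CPM in LPS sorted cells and 18.3, 9.69 and 26.6 CPM in PBS sorted cells, and 78, 56.6, 61.5 and 91.2 CPM and 25.4, 148 and 33.7 CPM in LPS and PBS pull-down from sorted cells. Of these 10 markers, Retnlg was at 0 reads in all LPS sorted libraries, Mmp8 in all PBS pull-downs, and Ly6c2, Mmp8 and Retnlg in all PBS sorted libraries. Their part in the Gpr84 change was not tested.

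Fcrls also rose, by less and not in every preparation. It had 1876, 1998, 1904 and 1498 CPM in LPS pull-down, against 1179, 1141 and 1136 CPM in PBS pull-down (0.66 ± 0.16, adjusted p = 0.000835). In sorted cells it had 2041, 1999.5, 2364 and 2137 CPM after LPS, against 1558, 1408 and 1359.6 CPM after PBS (0.57 ± 0.16). The libraries of LPS and PBS mice did not overlap in either preparation. In pull-down from sorted cells it had 3421, 2588, 3396 and 3467 CPM after LPS, against 3095, 2905 and 2904 CPM after PBS, and it was not called (0.12 ± 0.16, adjusted p = 0.646). The difference between the changes in pull-down from sorted cells and in whole-brain pull-down was -0.54 ± 0.22 (adjusted p = 0.222), which passed by the DESeq2 Wald test (-0.50, 0.0432).

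**Figure D3:**
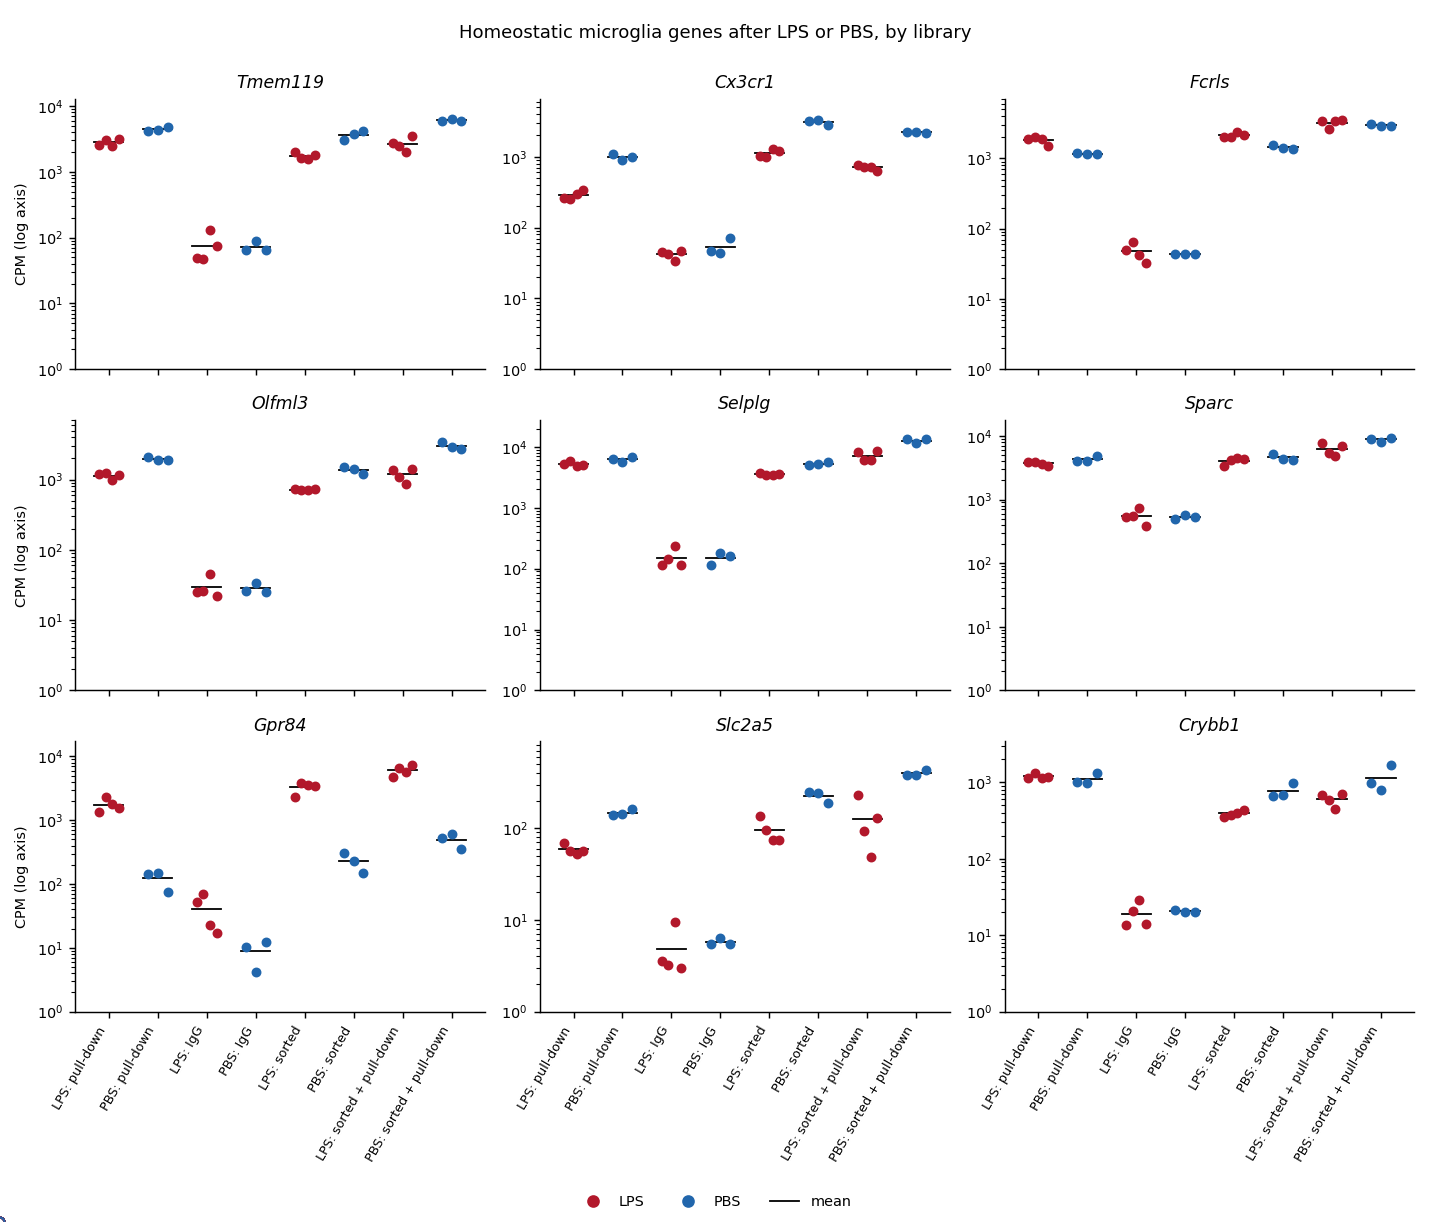
CPM on a log axis for each gene in the 28 libraries of the LPS experiment, LPS beside PBS for each preparation; points are libraries and bars are group means. Gpr84 after LPS stands above PBS in every preparation and Cx3cr1 and Slc2a5 stand below PBS in the 3 preparations other than IgG.

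Cx3cr1, the fractalkine receptor, had the largest fall. It had 261, 249.6, 294 and 337 CPM in LPS pull-down, against 1082, 894 and 985 CPM in PBS pull-down (-1.79 ± 0.16, adjusted p = 3.32e-15). In sorted cells it had 1015, 981, 1274 and 1220.1 CPM after LPS, against 3177, 3259.8 and 2812 CPM after PBS (-1.46 ± 0.15). In pull-down from sorted cells it had 755, 720.3, 726 and 639 CPM after LPS, against 2272, 2213 and 2139.9 CPM after PBS (-1.64 ± 0.16). LPS and PBS libraries were clearly separate each time.

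Slc2a5, Olfml3 and Tmem119 fell in the same 3 preparations. Slc2a5 had 68.9, 57.1, 53.0 and 56.2 CPM in LPS pull-down, against 141, 142 and 160.5 CPM in PBS pull-down (-1.31 ± 0.21), with changes of -1.31 ± 0.21 in sorted cells and -1.50 ± 0.22 in pull-down from sorted cells. The last rests on 123, 18, 8 and 73 reads in the LPS libraries. Olfml3 had 1184, 1231, 985 and 1147 CPM in LPS pull-down, against 2105, 1905 and 1881 CPM in PBS pull-down (-0.79 ± 0.16), with changes of -0.94 ± 0.16 in sorted cells and -1.33 ± 0.16 in pull-down from sorted cells. Tmem119 had 2591, 3102, 2468 and 3143 CPM in LPS pull-down, against 4172, 4324 and 4843 CPM in PBS pull-down (-0.65 ± 0.19, adjusted p = 0.00528). In sorted cells Tmem119 had 1980.3, 1651, 1589.6 and 1807 CPM after LPS, against 3102, 3793 and 4124 CPM after PBS (-1.06 ± 0.19), and in pull-down from sorted cells its change was -1.16 ± 0.19. None of these genes had overlapping LPS and PBS libraries in any of the 3 preparations.

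Selplg, Sparc and Crybb1 changed in some preparations and were not called in others. Selplg had 5154, 5793, 4855 and 5050.0 CPM in LPS pull-down, against 6286, 5708 and 6767 CPM in PBS pull-down (-0.26 ± 0.17, adjusted p = 0.285). It fell in sorted cells (-0.57 ± 0.17), although not without PBS sorted replicate 3 (-0.49, adjusted p = 0.0527), and in pull-down from sorted cells (-0.81 ± 0.17). With total-count scaling it was also called in pull-down (-0.42, adjusted p = 0.0363). Sparc had 3900.3, 3833, 3664 and 3329.9 CPM in LPS pull-down, against 4012, 4031 and 4759 CPM in PBS pull-down (-0.21 ± 0.17, adjusted p = 0.386), and 3389.8, 4144, 4443 and 4328 CPM after LPS, against 5257, 4346 and 4145 CPM after PBS in sorted cells (-0.17 ± 0.17, 0.476). It was called lower in pull-down from sorted cells (-0.50 ± 0.17, adjusted p = 0.0206), a call lost with LPS replicates 1 and 4 alone and without LPS sorted-cell pull-down replicate 2 (-0.43, adjusted p = 0.0785).

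Crybb1 was the only member whose LPS change differed between whole-brain pull-down and a preparation that began with sorting, by the interaction test in the edgeR fit of all groups. In pull-down it had 1144, 1341, 1132 and 1189.6 CPM after LPS, against 1012, 995 and 1328 CPM after PBS, and it was not called (0.11 ± 0.18, adjusted p = 0.696). In sorted cells it had 358, 379.9, 399.5 and 438 CPM after LPS, against 665, 692 and 979.7 CPM after PBS (-0.98 ± 0.18, adjusted p = 1.3e-05). In pull-down from sorted cells it had 683, 592, 443 and 696 CPM after LPS, against 997, 788 and 1689.7 CPM after PBS (-0.93 ± 0.19). LPS and PBS libraries thus overlapped in pull-down from whole brain and did not in both preparations that began with sorting. The change in sorted cells minus that in pull-down was -1.09 ± 0.26 (adjusted p = 0.00681), where 2.41% of genes were called lower, and the change in pull-down from sorted cells minus that in pull-down was -1.04 ± 0.26 (0.0157), where 1.90% were. The first was lost without PBS sorted replicate 3 (-0.86, adjusted p = 0.0725), and the second without PBS pull-down replicate 1 (-0.98, adjusted p = 0.0538) and without PBS sorted-cell pull-down replicate 3 (-0.73, 0.135). The second was also lost with LPS sorted-cell pull-down replicates 1 and 4 alone (-0.87, adjusted p = 0.0912). Both terms share the pull-down libraries. Total-count scaling moved the median of all genes by 0.11 in the second, with 32% of calls higher, against 16.5% with TMM. For the other 8 members, the difference between sorted cells and pull-down ran from -0.41 ± 0.27 for Tmem119 to 0.34 ± 0.22 for Cx3cr1, and none was called.

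**Figure D4:**
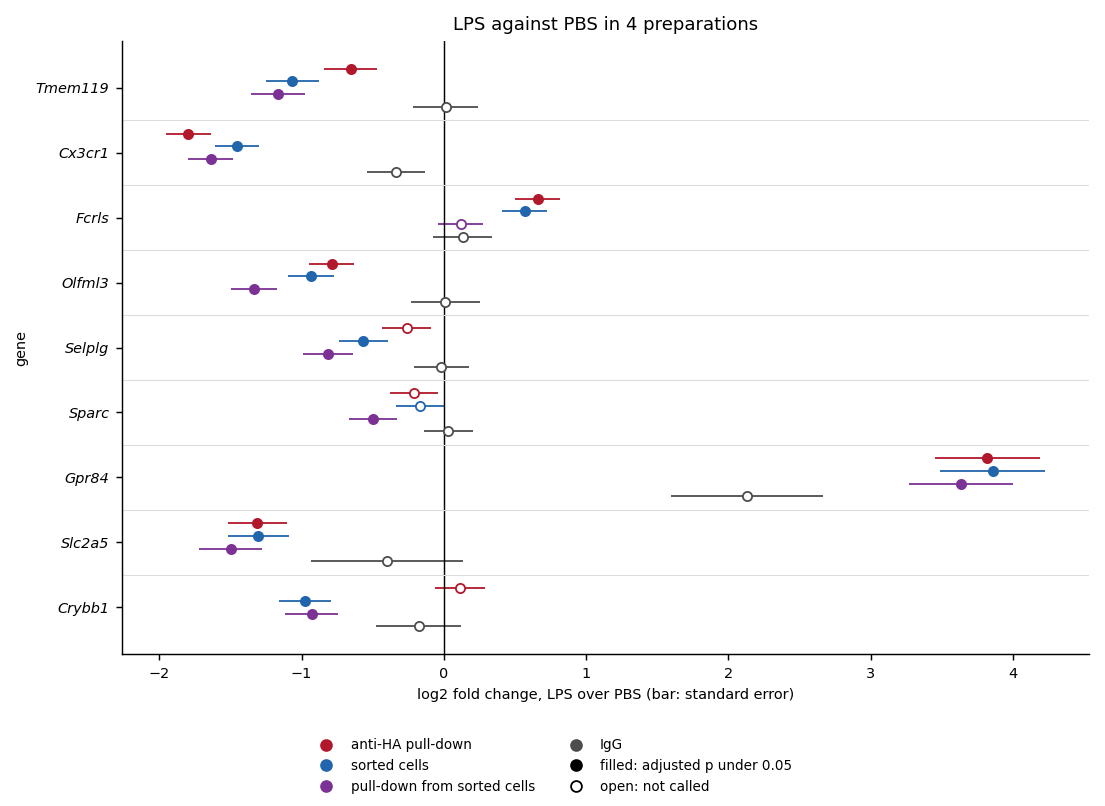
Log2 fold change of each gene, LPS over PBS, in pull-down, sorted cells, pull-down from sorted cells and IgG, with standard errors; filled points are called and open points are not. Gpr84 lies between 3.64 and 3.86 in the 3 preparations other than IgG, while Crybb1 lies at 0.11 in pull-down and at -0.98 and -0.93 after sorting.

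In IgG, edgeR called none of the 9 genes, where 1.00% of genes were called higher and 0.149% lower; 1 member had an unadjusted p under 0.05, and the DESeq2 Wald test called 1. That member was Gpr84, with 51.8, 69.0, 23.2 and 17.0 CPM in LPS IgG, against 10.1, 4.20 and 12.4 CPM in PBS IgG (2.13 ± 0.53, adjusted p = 0.0523). All 4 LPS libraries lay above the 3 PBS libraries, and Gpr84 was called with DESeq2 size factors (2.17, adjusted p = 0.0484), without the low-count filter (2.16, 0.00457), by the DESeq2 Wald test (2.18, 4.21e-05), without LPS IgG replicate 3 (2.30, 0.0441) and without LPS IgG replicate 4 (2.42, 0.00677). The other 8 members moved by between -0.40 ± 0.54 for Slc2a5 and 0.13 ± 0.21 for Fcrls. Slc2a5 fell below the low-count filter when LPS and PBS IgG were fitted alone. Set against IgG, the change in pull-down was called different for Cx3cr1 (-1.46 ± 0.26, adjusted p = 3.51e-05), where 2.98% of genes were called lower. Olfml3 did not pass (-0.80 ± 0.29, 0.0743) but was called with DESeq2 size factors (-0.94, adjusted p = 0.0225), with total-count scaling (-0.94, 0.0183), by the DESeq2 Wald test (-0.93, 0.00516) and without LPS IgG replicate 4 (-0.91, 0.0483). Gpr84 did not pass either (1.69 ± 0.70, 0.158) and was called by the DESeq2 Wald test (1.53, adjusted p = 0.0334) and with the number in the titles as a block (1.73, 0.0337). In this comparison 47.5% of calls were higher with total-count scaling and 45.7% with DESeq2 size factors, against 65.3% with TMM, and the median of all genes moved by -0.13 and -0.14.

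Pull-down stayed far above IgG in both treatments. All 9 genes were higher in LPS mice, with a median of 5.25, where 37.6% of genes were called higher, and in PBS mice, with a median of 4.72, where 33% were. The smallest difference in LPS mice was that of Cx3cr1 (2.73 ± 0.17), and the smallest in PBS mice that of Sparc (3.00 ± 0.20). The scale of these comparisons depended on the method: DESeq2 size factors moved the median of all genes by -0.66 in LPS and -0.52 in PBS mice, and total-count scaling by -0.56 and -0.43. The share of calls that were higher was then 31.9% and 32.2% with DESeq2 size factors and 34.4% and 35.2% with total counts, against 51.6% and 50.8% with TMM. All 9 genes stayed called under each.

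Sorting and pull-down were compared again in the LPS experiment, within each treatment, with cell isolation and selection of ribosome-bound RNA again differing together. In LPS mice 3 members were higher in sorted cells, where 33.1% of genes were called higher, and 4 were lower, where 43% were. In PBS mice 3 were higher, where 33.2% of genes were called higher, and 2 lower, where 38.7% were. Cx3cr1 was higher in sorted cells in both, by 1.98 ± 0.15 in LPS and 1.64 ± 0.17 in PBS mice, beside 1.43 and 1.47 in the digest experiment, which was normalized separately. Gpr84 was higher by 0.93 ± 0.29 in LPS and 0.89 ± 0.36 in PBS mice, and Slc2a5 by 0.63 ± 0.21 and 0.63 ± 0.21. The lower genes in both treatments were Olfml3 (-0.65 ± 0.15 in LPS and -0.51 ± 0.17 in PBS mice) and Crybb1 (-1.61 ± 0.17 and -0.52 ± 0.19). Tmem119 (-0.69 ± 0.18) and Selplg (-0.53 ± 0.16) were called lower in LPS mice, with -0.28 ± 0.20 and -0.23 ± 0.19 in PBS mice.

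Several of these calls moved with the scaling, which shifts all genes together. Without the low-count filter the TMM factors moved the median of all genes by -0.55 in LPS and -0.49 in PBS mice, and the share of calls that were higher to 29.1% and 32.2%, against 43.5% and 46.2%; total-count scaling moved the median by 0.25 and 0.21. The Cx3cr1 calls and, in LPS mice, the Crybb1, Olfml3 and Tmem119 calls held under every alternative. In LPS mice Sparc (0.15 ± 0.16) was called with total-count scaling (0.41, adjusted p = 0.00944) and without the low-count filter (-0.41, 0.0207), and Fcrls (0.23 ± 0.15) was called with total-count scaling (0.50, adjusted p = 0.00117), by the DESeq2 Wald test (0.24, 0.0308) and when fitted on the compared groups alone (0.28, 0.0308). In LPS mice calls were lost for Gpr84 and Slc2a5 without the low-count filter (0.39, adjusted p = 0.182, and 0.07, 0.798) and for Selplg with total-count scaling (-0.26, 0.101). In PBS mice Gpr84 was not called without the low-count filter (0.40, adjusted p = 0.295), when fitted on the compared groups alone (0.86, 0.0657), without PBS pull-down replicate 3 (0.63, 0.143), without PBS sorted replicate 1 (0.61, 0.183) and without PBS sorted replicate 2 (0.89, 0.0619). Crybb1 was not called with total-count scaling (-0.30, adjusted p = 0.128), without PBS pull-down replicate 3 (-0.38, 0.103), without PBS sorted replicate 1 (-0.42, 0.0841) and without PBS sorted replicate 2 (-0.44, 0.067), Olfml3 was not called with total-count scaling (-0.29, adjusted p = 0.0908) and without PBS sorted replicate 3 (-0.41, 0.0564), and Slc2a5 was not called without the low-count filter (0.13, adjusted p = 0.586). In PBS mice Fcrls was called with total-count scaling (0.54, adjusted p = 0.00251), by the DESeq2 Wald test (0.28, 0.0334) and when fitted on the compared groups alone (0.29, 0.0139), Selplg without the low-count filter (-0.72, adjusted p = 0.000249) and when fitted on the compared groups alone (-0.27, 0.0169) and Tmem119 without the low-count filter (-0.77, adjusted p = 8.12e-05) and when fitted on the compared groups alone (-0.31, 0.0111).

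Pull-down from sorted cells joins both steps in 1 preparation. In LPS mice 8 of the 9 genes were higher in pull-down from sorted cells than in sorted cells, where 15.2% of genes were called higher, and Cx3cr1 was lower, where 16.7% were. PBS mice gave the same count, with 16.6% of genes called higher and 15.2% lower. Selplg was higher by 1.01 ± 0.16 in LPS and 1.26 ± 0.19 in PBS mice, Olfml3 by 0.73 ± 0.15 and 1.13 ± 0.17, and Fcrls by 0.59 ± 0.15 and 1.04 ± 0.17. Cx3cr1 stood at -0.67 ± 0.15 in LPS and -0.48 ± 0.17 in PBS mice. Cx3cr1 was thus highest in sorted cells, next in their pull-down and lowest in whole-brain pull-down, in both treatments and with no overlap of libraries.

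These calls were firm for Selplg, Olfml3, Fcrls and Sparc under every alternative tried. In LPS mice calls were lost for Gpr84 with total-count scaling (0.73, adjusted p = 0.0564), without LPS sorted replicate 1 (0.73, 0.074) and without LPS sorted-cell pull-down replicate 4 (0.77, 0.0739) and with LPS sorted-cell pull-down replicates 1 and 4 alone (0.88, 0.0769), for Tmem119 without LPS sorted-cell pull-down replicate 4 (0.47, adjusted p = 0.0551), and for Slc2a5 with total-count scaling (0.42, adjusted p = 0.144), by the DESeq2 Wald test (0.58, 0.065), when fitted on the compared groups alone (0.65, 0.112), without LPS sorted replicate 2 (0.61, 0.0535), without LPS sorted replicate 3 (0.50, 0.129), without LPS sorted replicate 4 (0.49, 0.123) and without LPS sorted-cell pull-down replicate 1 (0.14, 0.696). In PBS mice they were lost for Crybb1 with total-count scaling (0.33, adjusted p = 0.158), when fitted on the compared groups alone (0.64, 0.172), without PBS sorted replicate 1 (0.48, 0.0951), without PBS sorted replicate 2 (0.52, 0.0708) and without PBS sorted-cell pull-down replicate 3 (0.27, 0.354), for Cx3cr1 with DESeq2 size factors (-0.40, adjusted p = 0.0513), without the low-count filter (-0.34, 0.195), without PBS sorted replicate 1 (-0.46, 0.059), without PBS sorted replicate 2 (-0.43, 0.0785), without PBS sorted-cell pull-down replicate 1 (-0.45, 0.076) and without PBS sorted-cell pull-down replicate 3 (-0.40, 0.115), and for Gpr84 with total-count scaling (0.86, adjusted p = 0.0775), without PBS sorted replicate 2 (1.11, 0.0577), without PBS sorted replicate 3 (0.88, 0.0978), without PBS sorted-cell pull-down replicate 1 (1.11, 0.0622) and without PBS sorted-cell pull-down replicate 2 (0.95, 0.0782). Total-count scaling moved the median of all genes by -0.19 in LPS and -0.26 in PBS mice, with 32.2% and 31.5% of calls higher, against 47.8% and 52.3% with TMM, and 57.3% and 65% without the low-count filter.

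Against whole-brain pull-down, pull-down from sorted PBS cells had more of 7 of the 9 genes, where 24.7% of genes were called higher. Gpr84 was higher by 2.00 ± 0.37, Slc2a5 by 1.44 ± 0.22, Fcrls by 1.37 ± 0.17, Cx3cr1 by 1.16 ± 0.17, Sparc by 1.04 ± 0.18, Selplg by 1.03 ± 0.19 and Olfml3 by 0.63 ± 0.17. Crybb1 was not called (0.07 ± 0.19). Tmem119 (0.45 ± 0.20, adjusted p = 0.055) was called with DESeq2 size factors (0.49, adjusted p = 0.0323), by the DESeq2 Wald test (0.49, 0.0404), when fitted on the compared groups alone (0.51, 9.12e-05), without PBS pull-down replicate 2 (0.53, 0.0468), without PBS sorted-cell pull-down replicate 1 (0.56, 0.0362) and without PBS sorted-cell pull-down replicate 3 (0.56, 0.0336), with the number in the titles as a block (0.45, 0.0422), and the Olfml3 call was lost without the low-count filter (0.28, adjusted p = 0.253). That filter setting moved the median of all genes by -0.33 and the share of calls that were higher to 30.2%, against 46%. The neuronal genes summed to 569, 459 and 689.7 CPM in pull-down from sorted cells and 2463, 2896 and 2689 CPM in whole-brain pull-down, and their part in these differences was not tested.

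**Figure D5:**
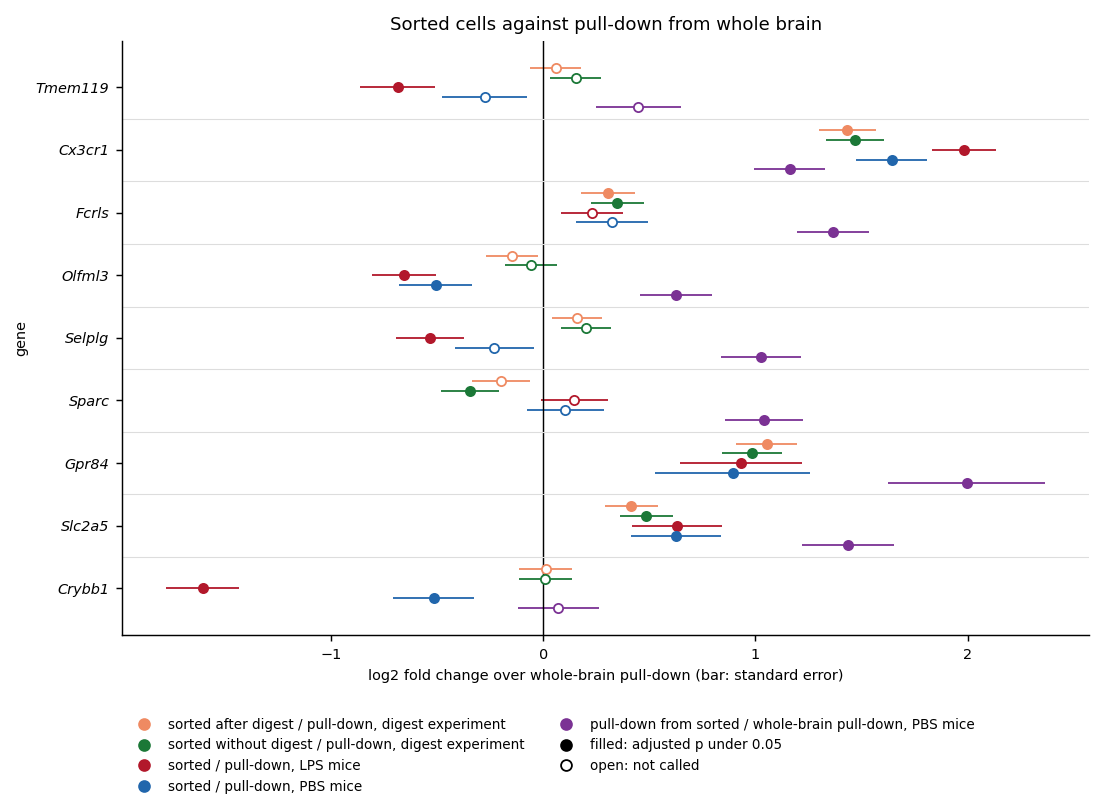
Log2 fold change of each gene over whole-brain pull-down for sorted cells of the digest experiment and of LPS and PBS mice and for pull-down from sorted cells of PBS mice, with standard errors; filled points are called and open points are not. Cx3cr1, Gpr84 and Slc2a5 lie right of 0 in all 5 comparisons with the low-count filter and TMM scaling, and Crybb1 lies furthest left, at -1.61, in LPS mice.

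Another 30 genes of the homeostatic microglia program, listed with earlier results of these data known, give the setting of the 9. Of 29 tested in the driver experiment, 28 were higher in induced pull-down than in input, with a median of 5.36, 20 were higher in constitutive pull-down (1.90) and 26 in uninduced pull-down (3.36). Over all genes tested, 28.7%, 18.1% and 6.44% were called higher in these comparisons. In LPS mice 12 of 30 were lower and 1 higher in pull-down, 15 and 2 in sorted cells, and 19 and 1 in pull-down from sorted cells. Over all genes tested, 11% were called lower and 15.5% higher in pull-down. The shares were 17.6% and 17% in sorted cells, and 12.9% and 12.7% in pull-down from sorted cells. The largest falls in pull-down were those of the lysophospholipid receptor Gpr34 (-3.73 ± 0.32), the transcription factor Sall1 (-2.43 ± 0.20) and the purinergic receptor P2ry12 (-2.03 ± 0.19). The 1 gene that rose in all 3 preparations was P2ry6 (1.53 ± 0.18 in pull-down), a nucleotide receptor. In cells sorted after the digest, 18 of 30 were higher and 7 lower than in pull-down, where 31.6% and 41.1% of all genes were called. Log2 differences of the 30 ran from -1.95 to 6.28, with a median of 0.77. Gpr34 stood at 6.28 ± 0.22, P2ry12 at 4.17 ± 0.16 and P2ry13 at 3.45 ± 0.15, all named after their values were seen.

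The level of each gene over the 21 groups of the 3 experiments was also set beside that of 9827 other genes, as the Pearson correlation of group means of log2 CPM after centring each experiment. This is a description: groups of 1 experiment share their preparation and range of depth. Tmem119 was most like the phosphatase gene Ptpn6 (r = 0.995 over 21 groups), and Selplg most like Grn (0.997), which encodes progranulin. Fcrls was most like the complement gene C1qb (0.996), Olfml3 like Man2b1 (0.996), a lysosomal mannosidase, and Slc2a5 like the organic anion transporter Slco2b1 (0.995). Cx3cr1 was most like Siglech (0.985), Sparc like Tmem176b (0.980) and Crybb1 like Gpsm3 (0.991). Gpr84 was most like Tlr2 (0.991) and Cd14 (0.988), which encode a receptor for bacterial lipoproteins and a co-receptor for LPS. Among the 9, the closest pair were Tmem119 and Selplg (0.995), followed by Tmem119 and Olfml3 (0.992), and the least alike were Cx3cr1 and Gpr84 (0.761).

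In the driver experiment the means stood lowest in constitutive, next in uninduced and highest in induced pull-down for all 9 genes, and no libraries of neighbouring groups in that order overlapped. Over all genes tested, 25.6% were called lower in constitutive and 18.3% in uninduced than in induced pull-down. How many of all genes had that order, or no overlap, was not counted. Crybb1, for example, averaged 39.0 ± 13.7 CPM in constitutive (n = 3), 112 ± 30.5 CPM in uninduced (n = 2) and 902 ± 292 CPM in induced pull-down (SD, n = 3). In PBS mice Gpr84 averaged 497 ± 129.6 CPM in pull-down from sorted cells, 226 ± 77.0 CPM in sorted cells and 123 ± 40.8 CPM in pull-down (SD, n = 3 each), and the libraries of the last pair overlapped. Fcrls in PBS mice averaged 2968 ± 109.8 CPM, 1442 ± 103 CPM and 1152 ± 23.4 CPM in the same order, with no overlap between neighbours.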

How the data were processed

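Read counts per gene, as deposited by the authors in 3 tables of 24, 15 and 28 libraries, are whole numbers per gene symbol, not normalized. The submitters' processing notes name bcl2fastq, HISAT 0.1.5, HOMER and the build mm9 without their roles; annotation, strand setting and duplicate handling are not given in the sources used here. Groups follow the labels, and p-values measure the spread between libraries. Per the design text, replicates are separate mice, and sorting and pull-down used the same animal. The titles of the LPS experiment number the libraries 1 to 7 through all preparations, without saying that a number marks a mouse. Deviations of same-numbered libraries correlated weakly there (r from -0.06 to 0.14, above 0 in 30 of 42 pairs, and in 7 of 7 between sorted cells and pull-down). The fits treat all libraries as independent, so tests between preparations take no account of a shared mouse. Fits with a number as a block are an alternative. The block was the title number within treatment for the other comparisons of the LPS experiment. For LPS against PBS and in the driver and digest experiments it was the replicate number.

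Each table was analysed on its own in R 4.3.3 with edgeR 4.0.16: genes were filtered with filterByExpr (minimum count 10), scaled by TMM, and tested with the robust quasi-likelihood test, all groups of a table in 1 fit, with Benjamini-Hochberg adjustment over all genes tested and a threshold of 0.05. SEs were derived from the fold change and the F statistic. The procedure was tested on simulated data first. No pair of replicate libraries agreed within sampling noise. Total counts per library set the precision, and intervals cover counting error only. Alternatives were DESeq2 1.42.0 (Wald test, and its size factors in edgeR), total-count scaling, no filter, the compared groups alone, a replicate block and leaving out each library. The 9 genes and all gene lists were chosen with earlier results of these data known. Genes named as most alike were the 3 with the highest correlation per gene among those passing the filter in all 3 tables and reaching 10 CPM in a group of each, predicted genes left out; log2 CPM used a prior count of 2. P2ry6, Gpr34, Sall1, P2ry12 and P2ry13 were named after their values were seen.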

Additional observations from a re-analysis of the deposited data

Results flagged for a closer look

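In 4 of the 63 groups of 4 libraries examined, 1 library lay far from the other 3 by Dixon's criterion, which chance meets in about 1 in 20 groups. Fcrls in LPS pull-down from sorted cells was 2588 CPM in replicate 2, against 3396 to 3467 CPM in the others. LPS IgG replicate 3 was high for Olfml3, at 45.0 CPM against 22.2 to 25.7 CPM, and for Slc2a5, at 9.55 CPM against 2.96 to 3.55 CPM, the last resting on 4 to 7 reads per library. Crybb1 in IgG replicate 3 of the digest experiment was 26.9 CPM, against 17.2 to 17.9 CPM in the others.

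The enrichment of pull-down over input differed between constitutive and induced mice by the interaction test for all 9 genes. The log2 differences were -4.04 for Tmem119, -3.83 for Cx3cr1, -4.72 for Selplg, -4.87 for Fcrls and -4.83 for Gpr84. They were -3.37 for Slc2a5, -3.02 for Sparc, -4.16 for Olfml3 and -4.81 for Crybb1.

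The LPS change of Crybb1 differed between sorted cells and pull-down by -1.09, and between pull-down from sorted cells and pull-down by -1.04, the second not called with LPS sorted-cell pull-down replicates 1 and 4 alone (-0.87, adjusted p = 0.0912 by edgeR). The LPS change of Cx3cr1 differed between pull-down and IgG by -1.46.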

How the results depend on the processing

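Of the log2 changes of the 9 genes recomputed under the alternatives, 3386 kept their direction and side of the threshold, 83 lost a call, 44 gained one, 78 uncalled values changed sign and 1 was called in the opposite direction: Sparc, LPS sorted cells against pull-down, at -0.405 without the low-count filter (adjusted p = 0.0207 by edgeR), where the median of all genes moved by -0.55. For LPS in IgG, 1 member was called, against 0, with DESeq2 size factors, no filter, the DESeq2 Wald test and the replicate block. For the LPS change in pull-down minus IgG, 2 members were called, against 1, with DESeq2 size factors, total-count scaling and the replicate block, and 3 by the DESeq2 Wald test, which called 2, against 1, for pull-down from sorted cells minus pull-down, where 0 were called with LPS sorted-cell pull-down replicates 1 and 4 alone. With constitutive pull-down and IgG fitted alone, 3 members were called, against 5, and Gpr84 and Slc2a5 were below the filter. Both were also below it with constitutive pull-down and input fitted alone, and Gpr84 with uninduced pull-down and IgG. The same held for both with IgG and input of the driver experiment fitted alone, and for Slc2a5 with LPS and PBS IgG. Leaving out each library in turn gave 2 to 5 members for IgG against input (4 with all), 3 to 5 for undigested sorted cells against pull-down (5), 3 to 5 for PBS sorted cells against pull-down (5), 0 to 1 for LPS in IgG (0), 1 to 2 for pull-down minus IgG (1), and 0 to 1 for both Crybb1 interactions (1).

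Counts over all genes moved by more than 1.5 times as follows. Leaving out a library gave 451 to 817 genes for uninduced pull-down against input (1293 with all), 359 to 715 against IgG (965) and 2517 to 4001 against induced pull-down (4120). It gave 86 to 172 for LPS in IgG (132), 196 to 437 for sorted minus pull-down (367) and 154 to 362 for pull-down from sorted cells minus pull-down (260). Without the filter, digested against undigested gave 25 (16), LPS in IgG 213 and pull-down from sorted cells minus pull-down 453; the DESeq2 Wald test gave 25 for the digest. The compared groups alone gave 30, 84 and, for sorted minus pull-down, 552. The cause of these shifts was not tested.

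Groups shared replicate numbers. A library deviated most like its own number in 16 of 36 cases in the driver, 21 of 42 in the digest and 46 of 84 in the LPS experiment, where an equal draw among the candidates gives 12, 11.3 and 24; no label says that a number marks a mouse. With the replicate block, calls changed for Cx3cr1 without against with tamoxifen (-1.02, adjusted p = 0.0567), Fcrls in digested sorted cells against pull-down (0.26, 0.0642), Gpr84 in IgG (2.08, 0.0439) and in pull-down minus IgG (1.73, 0.0337), and Tmem119 in PBS pull-down from sorted cells against pull-down (0.45, 0.0422), and for no other member. For Cx3cr1 without against with tamoxifen and for Gpr84 in IgG, the block was the replicate number. Different mice share that number across kinds of mice and across LPS and PBS, so there it cannot mark a shared mouse. For Gpr84 in pull-down minus IgG and for Tmem119, it was the title number within treatment. A further block in the driver experiment, within kind of mouse, was chosen after seeing the data. Depth limits Gpr84 and Slc2a5 most in the driver experiment, where no input, IgG, constitutive or uninduced pull-down library held more than 10 reads of Gpr84 or 25 of Slc2a5.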
